A study of Mus musculus with 8 samples.

Results

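A set of 10 genes for the killing proteins and inflammatory chemokines of cytotoxic lymphocytes was followed in mouse regulatory T cells (Tregs), out of 55487 genes in the deposited tables. The members were taken by gene symbol from a list that was chosen with earlier results of these data known. They were the granule genes Prf1, Gzma, Gzmb, Gzmk and Nkg7, the Fas ligand gene Fasl, and the chemokine genes Ccl3, Ccl4, Ccl5 and Xcl1. All 10 were found in both tables. The study compared Tregs lacking steroid receptor coactivator 3 (SRC-3, encoded by Ncoa3, a coactivator of nuclear receptors and other transcription factors) with control Tregs, and its design text names the anti-tumor effect of the knockout cells as its interest. There were 8 SMART-Seq v4 libraries of splenic Tregs from C57BL/6 mice, 2 in each of 4 groups: SRC-3KO and control, each without and with a tumor. SMART-Seq v4 is a full-length cDNA method for small amounts of RNA. The protocol sorts the cells by green fluorescent protein (GFP). Both controls with a tumor and replicate 2 of the controls without one are titled as Foxp3-Cre, the Treg-specific Cre driver, whereas replicate 1 of the controls without a tumor is titled WT and its source carries no mention of GFP. Both SRC-3KO titles without a tumor, and no control title, hold the tag Tam1, whose meaning the labels do not give. The labels give neither the tumor model, the age or sex of the mice, nor the deleted exons, and they do not say that replicates came from separate animals, so every p-value measures only the spread between these samples.

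Cytotoxic lymphocytes kill by releasing granules in which perforin (Prf1) opens membranes and granzymes (Gzma, Gzmb, Gzmk), which are serine proteases, enter and cleave target proteins. Fas ligand kills separately, by engaging the death receptor Fas on a neighbouring cell. CCL3, CCL4 and CCL5 attract T cells and myeloid cells, XCL1 attracts the XCR1-bearing dendritic cells that cross-present antigen, and activated Tregs are known to use some of these molecules, granzyme B and perforin among them, to suppress or kill other cells.

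On mm10, by GENCODE positions, Prf1 (ENSMUSG00000037202) lies at chr10:61297833-61304680 on the plus strand and Gzmb (ENSMUSG00000015437) at chr14:56258838-56262260 on the minus strand. Gzma (ENSMUSG00000023132) at chr13:113093825-113100981 and Gzmk (ENSMUSG00000042385) at chr13:113171608-113225908 are neighbours on the minus strand. Nkg7 (ENSMUSG00000004612), which encodes a membrane protein of cytotoxic granules, is a short gene at chr7:43437073-43438249 on the plus strand. Fasl (ENSMUSG00000000817) at chr1:161780689-161788495 and Xcl1 (ENSMUSG00000026573) at chr1:164931644-164935527 both lie on the minus strand. The 3 CC chemokine genes form a cluster on chromosome 11, with Ccl5 (ENSMUSG00000035042) at chr11:83525778-83530518 and Ccl3 (ENSMUSG00000000982) at chr11:83647844-83649355 on the minus strand and Ccl4 (ENSMUSG00000018930) at chr11:83662584-83664683 on the plus strand. Gzmk overlaps Esm1 and Xcl1 overlaps Gm20743 on the opposite strand. No source used here says whether reads were counted by strand, so reads of those pairs cannot be told apart.

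Promoter windows were read from RefSeq on GRCm38.p6 for 8 of the 10 genes, Ccl4 and Ccl5 having no entry in the table used. Each window runs from 250 bases before the RefSeq start. That start is not always the GENCODE one. In GENCODE, Gzmb begins at 56262260 and Ccl3 at 83649355, both downstream of their RefSeq starts. Positions below count from the RefSeq start. The part before the start is shown for Ccl3, which had the smallest p of the set with a tumor, for Fasl and Xcl1, which lay on opposite sides of the controls in the 2 tumor states, and for Gzmb, the most abundant granzyme. Capitals mark matches on either strand to the NFAT core GGAAA, the RUNX core TGTGGT and the AP-1 site TGANTCA. On the other strand the NFAT core reads as TTTCC, and the RUNX core as ACCACA. Windows are at chr11:83649379-83649628 (Ccl3), chr1:161788496-161788745 (Fasl), chr1:164935523-164935772 (Xcl1) and chr14:56262335-56262584 (Gzmb), each written 5′ to 3′ on the minus strand that carries the gene.
Ccl3: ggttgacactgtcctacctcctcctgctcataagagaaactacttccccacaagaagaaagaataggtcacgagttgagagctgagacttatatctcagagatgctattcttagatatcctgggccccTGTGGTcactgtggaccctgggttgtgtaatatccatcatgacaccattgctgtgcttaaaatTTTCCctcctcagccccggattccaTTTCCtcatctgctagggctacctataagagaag
Fasl: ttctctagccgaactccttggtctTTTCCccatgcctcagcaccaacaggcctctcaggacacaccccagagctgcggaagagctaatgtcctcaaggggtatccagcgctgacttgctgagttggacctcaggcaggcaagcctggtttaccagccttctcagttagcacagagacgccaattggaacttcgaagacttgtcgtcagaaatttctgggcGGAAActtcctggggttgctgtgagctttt
Xcl1: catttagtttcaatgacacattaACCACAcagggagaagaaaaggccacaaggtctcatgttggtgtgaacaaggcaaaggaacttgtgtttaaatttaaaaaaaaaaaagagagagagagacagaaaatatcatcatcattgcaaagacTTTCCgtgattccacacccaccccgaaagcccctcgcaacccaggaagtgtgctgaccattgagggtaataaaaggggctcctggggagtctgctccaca
Gzmb: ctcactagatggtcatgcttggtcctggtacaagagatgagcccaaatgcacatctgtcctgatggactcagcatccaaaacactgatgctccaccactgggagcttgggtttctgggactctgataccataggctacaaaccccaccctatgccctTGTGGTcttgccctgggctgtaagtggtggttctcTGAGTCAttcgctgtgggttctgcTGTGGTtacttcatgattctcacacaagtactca
Ccl3 holds 2 NFAT cores, at -59 to -55 and -34 to -30 from the start, and 1 RUNX core at -122 to -117. Fasl holds 2 NFAT cores, at -226 to -222 and -30 to -26. Xcl1 holds 1 NFAT core at -100 to -96 and 1 RUNX core at -227 to -222. Gzmb holds 2 RUNX cores, at -93 to -88 and -34 to -29, and the only AP-1 match of the set, at -58 to -52. Over the 300-base windows, which end 50 bases past the start, a RUNX core was found in 6 of the 8 member windows and in 16.8% of 32851 mouse windows. An NFAT core was found in 5 of 8 against 61.3%, and an AP-1 site in 1 of 8 against 7.81%. The TATA box TATAAA, found in 13.6% of all windows, matched none of the 8. No match overlapped another. A match is a run of letters, and its absence says nothing of the factor.

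The libraries without a tumor were deposited as counts, 24159217 to 31075452 per library, and those with a tumor as FPKM (fragments per kilobase of transcript, scaled by library size), with unknown depth. Ncoa3, the targeted gene, stood at 39.6 and 26.7 CPM (counts scaled by library size) in the SRC-3KO libraries without a tumor against 132 and 54.1 in the controls, and at 47.5 and 27.7 FPKM against 37.7 and 45.4 with one, where the groups overlapped. The Treg markers Foxp3, Il2ra, Ctla4, Ikzf2, Tnfrsf18, Cd3e and Cd4 were present in all 8 libraries. With a tumor they summed to 2205 and 1642 FPKM in the controls and to 2568 and 2528 FPKM in the knockouts. All 7 ratios were above 0 there, and 6 of the 7 lay above both controls, against 27.5% of all genes tested. Ikzf2 (1.37) and Il2ra (0.93) were among those 6, and none of the 7 passed the adjusted threshold. Replicates correlated across genes at 0.635 for the controls without a tumor and at 0.878 to 0.975 in the other groups (Pearson, log2 values). In the control library numbered 2 with a tumor, 6 neutrophil markers summed to 3541 FPKM and 8 monocyte and macrophage markers to 1458 FPKM. In the other 3 libraries with a tumor those sums reached at most 4.4 and 48.1 FPKM.

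In tumor-bearing mice, the cytotoxic and chemokine genes lay lower in SRC-3KO than in control Tregs. For all 9 members that could be tested, both SRC-3KO libraries stood below both controls, against 24.9% of the 12859 genes tested, and for 0 both stood above, against 27.5%. None reached an adjusted p under 0.05 in limma on log2(FPKM + 1), where 0.0933% of genes were lower and 0.0156% higher at that level. At an unadjusted p under 0.05, 6 of the 9 were lower, against 6.07% of all genes, and 0 were higher, against 10.4%. The median log2 ratio of SRC-3KO over control was -1.70 for these members and -0.02 for all genes tested. The list was chosen with earlier results of these data known, so these shares are descriptions and no independent test. Prf1 passed the filter of 1 FPKM in 2 libraries only through its controls, so its direction was fixed by the filter, and Gzmk was listed at 0 in all 4 libraries. After correction for GC content and transcript length, the 9 ratios stayed below 0, with a median of -1.43. These are bulk libraries, in which fewer cells of a kind and less RNA per cell cannot be told apart.

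**Figure D1:**
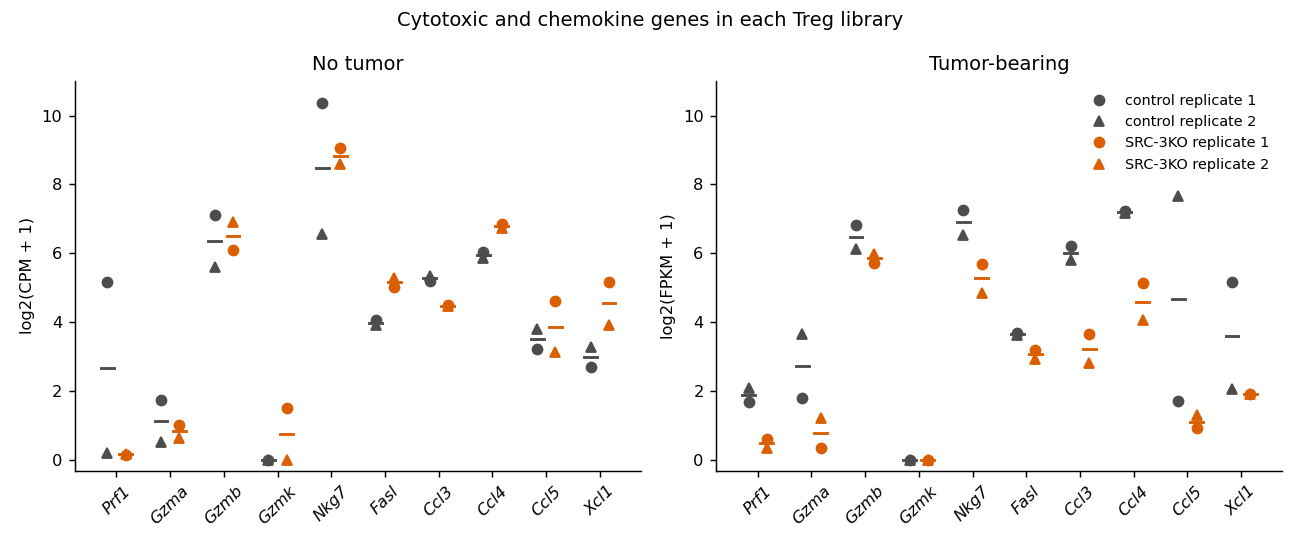
Level of each gene in every library, on a log2 axis after adding 1, as CPM without a tumor (left) and as FPKM with one (right); circles are replicate 1, triangles replicate 2, and short bars the mean of the log2 values. Grey controls sit above orange SRC-3KO libraries for all genes but Gzmk on the right, while on the left the order differs from gene to gene; heights are to be compared within a gene, since CPM are not per length.

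Among the granule genes in tumor-bearing mice, Nkg7 stood at 151 and 92.3 FPKM in the controls and at 50.4 and 28.1 FPKM in the SRC-3KO libraries. The groups did not overlap, and the mean was 3.10-fold higher in the controls. Its log2 ratio was -1.62 (SE 0.37, limma adjusted p = 0.169). Gzmb, the granzyme most often found in activated Tregs, stood at 113 and 69.6 FPKM in the controls and at 52.0 and 62.7 FPKM in the knockouts. The lower control lay only just above the higher knockout library, and the ratio of the means was 1.59 (log2 ratio -0.63, SE 0.29, adjusted p = 0.344). Prf1 was scarce in every library, at 2.22 and 3.29 FPKM in the controls against 0.541 and 0.289 FPKM. Its log2 ratio was -1.40 (SE 0.27, adjusted p = 0.151), and its controls averaged 6.65 times the SRC-3KO mean. Gzma stood at 2.51 and 11.8 FPKM in the controls and at 0.280 and 1.35 FPKM in the knockouts, so that the controls differed from each other by more than control replicate 1 differed from SRC-3KO replicate 2. Its controls averaged 8.79 times the knockouts (log2 ratio -1.95, SE 0.67, adjusted p = 0.263). The ratio was -1.02 when control replicate 2, the library with the myeloid transcripts, was left out and -2.88 when control replicate 1 was. The balance between the granule genes differed between libraries as well. Gzmb was 51.0 and 21.1 times Prf1 in the controls and 96.1 and 217 times Prf1 in the SRC-3KO libraries, on the FPKM scale. All 4 ratios rest on the low level of Prf1.

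Fasl showed a small difference with little spread. The controls held 12 and 11.3 FPKM of it in tumor-bearing mice, against 8.23 and 6.73 FPKM in the SRC-3KO libraries. The groups were apart, and the controls averaged 1.56 times the knockouts (log2 ratio -0.59, SE 0.21, limma adjusted p = 0.278).

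Among the chemokines with a tumor, Ccl3 and Ccl4 lay furthest from the controls relative to their error. Ccl3, which encodes the chemokine MIP-1alpha, stood at 73.9 and 55.1 FPKM in the controls and at 11.8 and 6.02 FPKM in the SRC-3KO libraries. The control mean was 7.26 times that of the knockouts, a gap well beyond the spread within either group (log2 ratio -2.78, SE 0.34, limma adjusted p = 0.107). Ccl4, which encodes the chemokine MIP-1beta, stood at 150 and 142 FPKM against 34.2 and 15.8 FPKM. Here the controls were almost equal and averaged 5.84 times the knockouts (log2 ratio -2.59, SE 0.37, limma adjusted p = 0.121). Neither gene reached the threshold after adjustment over all genes.

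Ccl5 and Xcl1 each rested on 1 control library. Ccl5 (RANTES) stood at 2.29 FPKM in control replicate 1 and at 200 FPKM in control replicate 2, against 0.919 and 1.47 FPKM in the SRC-3KO libraries. Its log2 ratio was -3.56 (SE 1.83, limma adjusted p = 0.382). Leaving out control replicate 2 gave -0.59, and leaving out control replicate 1 gave -6.53 (adjusted p = 0.00674). The high library is the one with the neutrophil and monocyte transcripts, whose part in the Ccl5 value was not tested. Xcl1 was high in the other control: 34.9 FPKM in replicate 1 and 3.16 FPKM in replicate 2, against 2.77 FPKM in each SRC-3KO library. Its log2 ratio was -1.70 (SE 0.97, adjusted p = 0.422). Dropping control replicate 1 gave -0.14, and dropping control replicate 2 gave -3.25 (adjusted p = 0.0288). Without control replicate 2, limma placed Ccl3, Ccl4, Nkg7 and Gzmb past the threshold as well, at adjusted p of 0.0335, 0.0407, 0.0424 and 0.0355, the lone control being assumed to vary like the other group. In that fit 2249 genes passed in all. The members' ratios stayed below 0 there, from -0.59 for Ccl5 to -3.25 for Xcl1.

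Markers of other cell types were read in the same libraries. Of 8 natural killer cell markers, 3 to 6 were above 0 in each library with a tumor, and their sum was 2.63 and 2.68 FPKM in the controls and 0.633 and 1.18 FPKM in the knockouts. Klra4 was at 0 in all 4, and the defining receptor gene Ncr1 was at 0 in control replicate 1 and SRC-3KO replicate 1 and reached 0.343 FPKM in control replicate 2. Cd8a, which marks CD8 T cells, ranged from 0.0682 to 0.729 FPKM, and the sum of Cd8a and Cd8b1 was 4.90 and 6.88 FPKM in the controls and 7.76 and 8.09 FPKM in the knockouts. B cell transcripts moved with the members: the 11 B cell markers summed to 2199 and 6306 FPKM in the controls and to 472 and 482 FPKM in the SRC-3KO libraries, with none at 0. All 10 that were tested lay below both controls, against 24.9% of all genes tested. Igkc (-5.34, limma adjusted p = 0.0296) and Cd79a (-2.96, adjusted p = 0.0410) passed the threshold. Plasma cell markers summed to 277 and 346 FPKM in the controls and to 241 and 214 FPKM in the knockouts. Of the 3 tested, Jchain (-5.39, limma adjusted p = 0.0204) and Mzb1 (-3.91, adjusted p = 0.0296) lay below both controls, and Xbp1 overlapped. Jchain was at 0 in SRC-3KO replicate 1, so it passed the filter of 1 FPKM at least in part through its controls. Any marker that passed only through its controls had its direction fixed by the filter, which limits the counts of B and plasma cell markers. Monocyte and macrophage markers (4 to 8 of 8 above 0) summed to 48.1 and 1458 against 11.8 and 9.23 FPKM. In that list Apoe lay below both controls (log2 ratio -4.12, SE 0.20, limma adjusted p = 0.0117) and Cd68 overlapped. Neutrophil markers summed to 4.4 and 3541 against 1.29 and 0 FPKM. Dendritic cell markers summed to 2.56 and 10.1 FPKM in the controls and to 4.72 and 6.40 FPKM in the knockouts. Zbtb46, the only gene of that list tested, lay above both controls (log2 ratio 0.80, limma adjusted p = 0.245). Basophil and mast cell markers summed to 0.893 and 1.35 against 0.827 and 1.08 FPKM. The Treg markers, given above, were higher in both knockouts than in either control in 6 of 7 cases. The part of these transcripts in the members' values was not tested.

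Without a tumor the members lay on both sides of the controls. Among the 8 tested, both SRC-3KO libraries lay below both controls for 1 gene (Ccl3), against 16.9% of the 14860 genes tested, and above both for 3 (Fasl, Ccl4 and Xcl1), against 23.8%. With edgeR's quasi-likelihood test no member had an adjusted p under 0.05, and 0% of all genes passed lower and 0% higher. No member reached an unadjusted p under 0.05 either, where 2.29% of genes were lower and 0.882% higher, and DESeq2 and limma-voom called none of the 8. The median log2 ratio was 0.29 for the members and -0.02 for all genes. Prf1 and Gzmk did not pass the filter on low counts and have no test. The ratios of all genes varied with transcript length in this state, from a median of 0.56 in the shortest class to -0.49 in the longest, and after correction for GC content and length 5 of the 8 members lay below 0, with a median of -0.80.

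The granule genes without a tumor were dominated by the WT-titled control. Nkg7 stood at 1324 CPM in that library and at 94.5 CPM in control replicate 2, with both SRC-3KO libraries between them at 531 and 383 CPM. Its log2 ratio was -0.63 (SE 1.30, edgeR adjusted p = 0.924). It turned to 2.17 when the WT-titled control was left out and to -1.53 when the other was (adjusted p = 0.0116, in a fit with 1 control, assumed to vary like the knockouts, in which 7310 of 14860 genes passed). Its direction was thus set by which control was kept. Prf1 had 877 counts (34.8 CPM) in control replicate 1 and 4, 3 and 4 counts in control replicate 2 and the 2 SRC-3KO libraries. No control other than the WT-titled one, and no knockout, held more Prf1 than a few counts. Gzmb stood at 137 and 48.1 CPM in the controls and at 68 and 120.5 CPM in the knockouts, with the same control highest and the groups interleaved (log2 ratio 0.02, SE 0.88, adjusted p = 0.993). Gzma was near the limit of detection, at 2.38 and 0.458 CPM against 1.05 and 0.563 CPM (log2 ratio -0.81, SE 1.6, adjusted p = 0.922). Its ratio was 0.71 without control replicate 1. Gzmk was seen in 1 library only, with 51 counts in SRC-3KO replicate 1 and 0 in the other 3.

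Fasl in mice without a tumor stood at 31.7 and 38.3 CPM in the SRC-3KO libraries and at 15.8 and 14.1 CPM in the controls. The knockout mean was 2.34 times that of the controls, with no overlap and close replicates (log2 ratio 1.23, SE 0.73, edgeR adjusted p = 0.910). Leaving out any 1 library gave ratios from 1.05 to 1.35, and the correction for GC content and length took the ratio to 0.18.

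Among the chemokines without a tumor, Xcl1 stood at 35.0 and 14.3 CPM in the knockouts and at 5.56 and 8.77 CPM in the controls. The knockout mean was 3.44-fold higher, and the replicates of the knockouts differed widely (log2 ratio 1.78, SE 0.89, edgeR adjusted p = 0.910). After the GC and length correction the ratio was 0.16. Ccl4 stood at 114 and 106 CPM against 64.8 and 57.5 CPM, with close replicates on both sides and a knockout mean 1.81 times that of the controls (log2 ratio 0.85, SE 0.73, adjusted p = 0.910). Without control replicate 2 its adjusted p was 0.0461, in a fit with 1 control in which 7310 genes passed, and its ratio turned to -0.45 after correction for GC content and length. Ccl3 went the other way, at 21.7 and 21.1 CPM in the knockouts against 35.6 and 40.0 CPM in the controls (log2 ratio -0.82, SE 0.71, adjusted p = 0.910). The correction for GC content and length moved its ratio further below 0, to -2.44, as it did for Gzma (-3.0) and Nkg7 (-1.15). Ccl5 stood at 23.5 and 7.77 CPM against 8.30 and 12.9 CPM, with overlapping groups (log2 ratio 0.56, SE 0.92, adjusted p = 0.914), and its ratio was -0.45 without SRC-3KO replicate 1.

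Natural killer cell markers were low in these 4 libraries. The 8 genes summed to 7.04 and 0.422 CPM in the knockouts and to 0.477 and 11.1 CPM in the controls, and Ncr1 was at 0 in all but SRC-3KO replicate 1 (3.05 CPM). Control replicate 1, which held the most Prf1 and Nkg7, had 3 of the 8 markers above 0 and the lower of the control sums. It also held the most Foxp3, at 231 CPM against 20.5 in control replicate 2 and 21.1 and 10.2 in the knockouts. The part of its different title in these levels was not tested. The 11 B cell markers summed to 1489 and 756 CPM in the knockouts and to 1214 and 1628 CPM in the controls. Neutrophil markers reached 159 CPM in control replicate 2 and at most 2.0 CPM in the other 3.

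**Figure D2:**
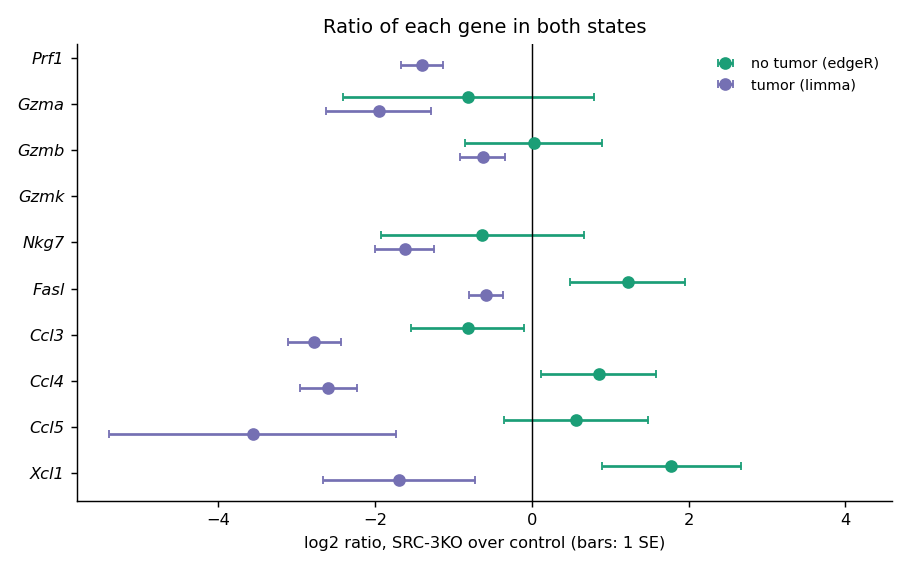
Log2 ratio of SRC-3KO over control for each gene, with bars of 1 SE, in mice without (green, edgeR) and with a tumor (purple, limma); Prf1 without a tumor and Gzmk in both states have no test and no point. All 9 purple points lie left of 0, while green points lie on both sides and their bars are wider for Gzma, Gzmb, Nkg7, Fasl, Ccl3 and Ccl4.

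The ratios were set against each other between the states, as a comparison chosen after the data were seen. The states share no library, and the 2 tables differ in unit, so only the ratios within each table were compared. Fasl, Ccl4 and Xcl1 lay above both controls without a tumor and below both with one, as did 8.57% of the 11674 genes tested in both tables. The difference of the log2 ratios (tumor minus no tumor) was -3.45 for Ccl4 (SE 0.80), -3.37 for Xcl1 (SE 1.31) and -1.81 for Fasl (SE 0.75), with a limma-based adjusted p of 0.571 for each. It was -1.96 for Ccl3 (SE 0.78), which lay below the controls in both states. For the other 4 genes it ranged from -0.78 for Gzmb to -3.94 for Ccl5, so that all 8 differences were below 0, as were 55.6% of the 11674 genes. The median was -1.97 for the 8 members and -0.27 for all these genes, and the trends with transcript length ran opposite ways: for transcripts in the shortest class the median ratio was 0.56 without a tumor and -0.28 with one. At an unadjusted p under 0.05, 3 of the 8 were lower with a tumor, against 1.45% of genes. After adjustment no member passed, and 0% of genes did.

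Ccl3 and Ccl4 are neighbouring genes that are often transcribed together, and their proportion per length was compared within libraries. Ccl3 was 0.473 and 0.600 times Ccl4 in the controls without a tumor and 0.163 and 0.171 times in the SRC-3KO libraries, in RPKM (reads per kilobase, scaled by library size). The groups were apart, with the knockouts close to each other. With a tumor the ratio was 0.493 and 0.388 in the controls and 0.344 and 0.381 in the knockouts, on the FPKM scale. The groups again did not overlap, but control replicate 2 and SRC-3KO replicate 2 nearly met. With 2 libraries against 2, the smallest p an exact two-sided permutation test can give is 0.33, so no test was made on these ratios.

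By level per length, Nkg7 led the set without a tumor. It made up 83.6% of the summed level of the members in control replicate 1, 32.9% in control replicate 2, and 61.8% and 56.1% in the SRC-3KO libraries, and in control replicate 1 it ranked 24 among 14851 genes. With a tumor, the members summed to 542 and 589 FPKM in the controls and to 161 and 125 FPKM in the knockouts. The leading gene was Nkg7 in control replicate 1 (27.9%), Ccl5 in control replicate 2 (34.0%) and Gzmb in both knockouts (32.3% and 50.1%). Gzmb kept its place near the top in tumor-bearing mice, within the first 6.98% and 9.89% of genes in the controls and the first 12.5% and 10.1% in the knockouts. Ccl3 went from the first 11.1% and 12.5% of genes in the controls to 42.6% and 59.7% in the knockouts. The order of levels in the SRC-3KO libraries with a tumor was Gzmb, Nkg7, Ccl4, then Ccl3 and Fasl, with Xcl1, Ccl5, Gzma and Prf1 below 3 FPKM. Gzmb and Nkg7 were within their spread of each other in replicate 1, and Ccl3 and Fasl changed places between the 2 replicates.

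Related genes were read from lists of other granzymes, granule machinery, death receptor genes, other chemokines and transcription factors of cytotoxic cells. None of their tested genes passed an adjusted p of 0.05 in either state. With a tumor, 6 of the 7 other chemokines tested lay below both controls and 1 above, against 24.9% and 27.5% of all genes tested. The list median was -2.72 on the log2 scale, and that of all genes -0.02. Ccl1, a CCR8 ligand, stood at 84.2 and 39.2 FPKM in the controls and at 4.61 and 9.03 FPKM in the knockouts (log2 ratio -2.96, limma adjusted p = 0.121). Ccl20, a CCR6 ligand, stood at 16.0 and 8.69 against 1.29 and 1.87 FPKM (-2.32), and Ccl22, a CCR4 ligand, at 4.32 and 35.8 against 0.308 and 0.832 FPKM (-3.18). Control replicate 2, with its neutrophil and monocyte transcripts, was the higher control for 4 of these 6. Cxcl10 stood at 10.3 FPKM in control replicate 1 and 80.0 FPKM in replicate 2, against 9.93 and 8.72 FPKM in the knockouts, Cxcl16 at 1.0 and 40.4 FPKM in the controls, and Ccl17 at 2.55 and 21.2 FPKM. Without that library the ratio was -1.78 for Ccl22, -3.51 for Ccl1 and -2.73 for Ccl20. The neutrophil chemokine Cxcl2 was the exception to the list's direction, at 1.58 and 4.05 FPKM against 5.75 and 6.11 FPKM. Gzmc, the only other granzyme tested, stood at 4.74 and 2.89 FPKM in the controls and at 0.303 and 0.291 FPKM in the knockouts (-1.87, adjusted p = 0.121), having passed the filter only through its controls, as Ccl17, Ccl22 and Cxcl16 among these chemokines and the receptor gene Ccr1 did, so that their direction was fixed.

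Genes that make and release granules lay on both sides of the controls. Of 15 tested with a tumor, 3 lay below both controls and 5 above, with a median log2 ratio of 0.07. Over all genes tested with a tumor, the shares were 24.9% below and 27.5% above. Stx11, a syntaxin needed for granule fusion, stood at 40.2 and 69.3 FPKM in the controls and at 141 and 131 FPKM in the knockouts (1.35, limma adjusted p = 0.163). Unc13d, which primes granules for release, stood at 23.1 and 22.3 against 38.0 and 35.4 FPKM (0.67), and Lyst, a lysosome trafficking regulator, at 1.84 and 3.36 against 0.835 and 0.425 FPKM (-1.12), having passed the filter only through its controls, so that its direction was fixed. Of 14 death receptor and ligand genes, 0 lay below both controls and 5 above (median 0.11). Tnf, for example, stood at 7.36 and 9.90 FPKM in the controls and at 13.6 and 13.3 FPKM in the knockouts (0.60). Of 9 transcription factors tested, 0 lay below both controls and 5 above (median 0.40). Tbx21, which encodes T-bet and drives cytotoxic genes in other lymphocytes, overlapped between the groups at 81.7 and 65.1 against 72.2 and 87.6 FPKM. Prdm1, which encodes Blimp-1, stood at 9.75 and 10.5 against 20.6 and 18.3 FPKM (0.88, adjusted p = 0.164), and Stat4 at 22.5 and 22.4 against 36.1 and 33.1 FPKM (0.60). Ccr1, which encodes a receptor of CCL3 and CCL5, stood at 2.15 and 25.8 FPKM against 0.673 and 0.780 FPKM.

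**Figure D3:**
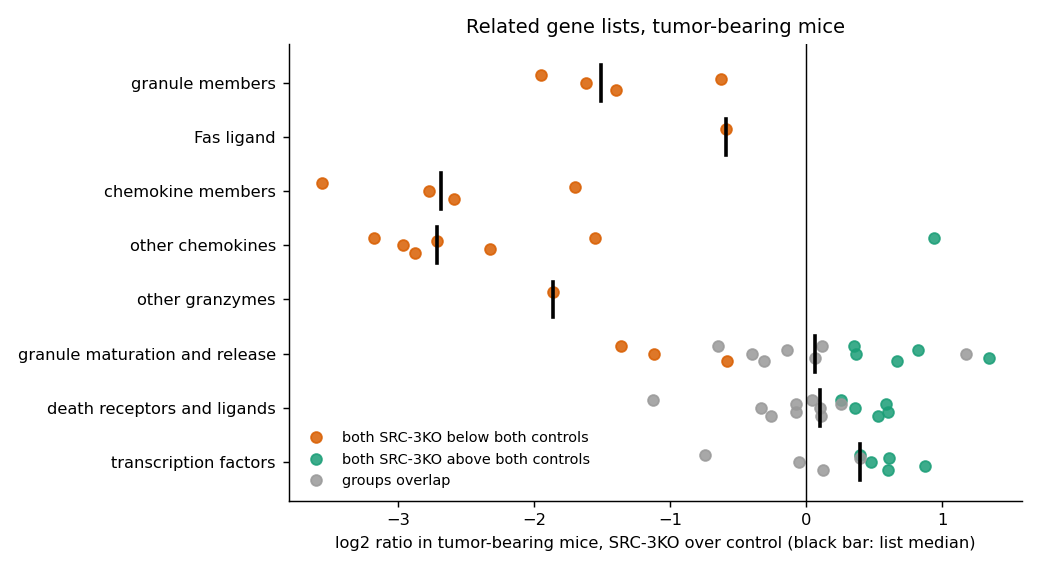
Log2 ratio of SRC-3KO over control in tumor-bearing mice for every tested gene of the member groups and of 5 related lists, coloured by whether both SRC-3KO libraries lay below both controls (orange), above both (green) or overlapped them (grey), with the list median as a black bar. The 9 members and 6 of 7 other chemokines are orange and left of 0, while the medians of granule machinery, death receptor genes and transcription factors lie at 0.07, 0.11 and 0.40.

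Without a tumor the related lists were spread to both sides. The 9 transcription factors had a median log2 ratio of -0.97, with 3 below both controls and 3 above. Bhlhe40 stood at 8.46 and 5.84 CPM in the knockouts against 236 and 17 CPM (-4.15, edgeR adjusted p = 0.910), and Tbx21 at 20.6 and 34.2 against 207 and 55.7 CPM (-2.26). DESeq2 gave Bhlhe40 an adjusted p of 0.0318. In both genes the WT-titled control was the highest library, as it was for Nkg7, Prf1 and Gzmb. Stx11 likewise stood at 285 CPM in that control and at 19.1 to 23.0 CPM in the other 3 libraries. Some other genes of these lists were lowest in that control. Srgn stood there at 60.4 CPM, against 995 to 1568 CPM in the other 3. Lamp2 stood at 6.32 against 36.1 to 64.4 CPM, and Fas at 4.65 against 85.8 to 195 CPM. Granule machinery had a median of -0.11 (4 of 15 below both controls, 6 above) and other chemokines one of -0.28 (1 of 9 below, 2 above). Over all genes tested without a tumor, the shares were 16.9% below and 23.8% above.

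**Figure D4:**
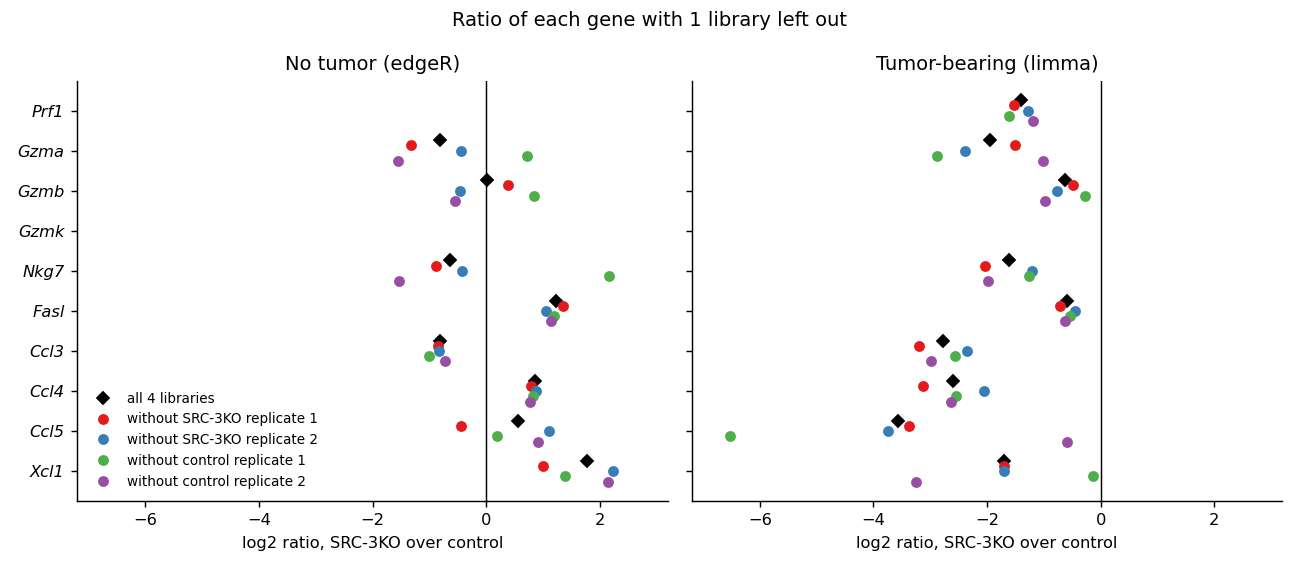
Log2 ratio of SRC-3KO over control for each gene with all 4 libraries (black diamonds) and with each library left out in turn (coloured circles), without (left) and with a tumor (right). With a tumor all points lie left of 0, and Ccl5 and Xcl1 spread from -6.53 to -0.59 and from -3.25 to -0.14; without one, Nkg7 moves to 2.17 when control replicate 1 is left out.

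For each member tested in both tables, the most similar genes were found by Euclidean distance of log2 values over the 8 libraries, centred within each table, among genes of like level. Ccl5 was nearest to Tyrobp, Ctsh and Fcer1g (Pearson r of 0.97, 0.93 and 0.93 over 8 libraries), genes of myeloid cells, and Tyrobp shared its single high library, at 433 FPKM in control replicate 2 with a tumor against 0.291 to 2.73 FPKM in the other 3. Ccl3 was nearest to Pclaf, Ccl1 and Serpine2 (r of 0.91, 0.85 and 0.79), and Ccl4 to Serpine2, Eno3 and Gm15590 (0.92, 0.87 and 0.84). Among pairs of members the highest value was 0.85, for Gzma with Ccl5, both of which were highest in that control library among those with a tumor. Ccl3 and Ccl4 correlated at 0.83, and Gzmb and Nkg7 at 0.81. Fasl was nearest to Syp (0.98), Gzmb to Chchd2-ps (0.95), Gzma to Stom (0.95), Nkg7 to Irf8 (0.84) and Xcl1 to Cutc (0.87). The lowest values among the members were -0.09 for Ccl5 with Gzmb and -0.08 for Ccl5 with Xcl1. Each value is a description over 8 libraries, in which genes share the depth and the differences between libraries of a table.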

How the data were processed

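SMART-Seq v4 RNA libraries of sorted splenic Tregs were read from 2 tables of 55487 genes each. Per the submitters' processing notes, FastQC, Trim Galore, STAR, featureCounts and edgeR were used on mm10, while versions, the annotation release and the strand setting were not given in the sources used here. Raw counts per gene were deposited for the 4 libraries without a tumor, with 24159217 to 31075452 counts in each. For the 4 libraries with a tumor the authors deposited FPKM from StringTie, per the file headers, whose depth is unknown. The tables differ in unit, so each state was tested alone.

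Counts were fitted with edgeR 4.0.16 (R 4.3.3, quasi-likelihood, filterByExpr, TMM), and CPM and RPKM were computed from them. FPKM were fitted with limma 3.58.1 (intensity trend) on log2(FPKM + 1), a scale that understates changes of low genes; a gene had to reach 1 FPKM in 2 or more libraries. P-values were adjusted by Benjamini-Hochberg over all genes tested, with a threshold of 0.05. The scripts were tested on simulated data, in which counts spread less than in the libraries without a tumor (edgeR common dispersion 0.791). That test does not show what could be detected at the real spread. States were compared by subtracting each gene's limma-voom ratio from its limma ratio, with the smaller degrees of freedom. Each gene list was described by counts and medians.

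Named genes were the members, Ncoa3 and Foxp3, the up to 3 genes of each list with the smallest p in each comparison, and the 3 nearest genes of each member. Ccr1, Ccl17, Cxcl2, Cxcl10, Cxcl16, Tbx21, Ncr1, Klra4 and Cd8a in the tumor comparison, and the difference between states, were chosen after their values were seen. The members and lists were chosen with earlier results of these data known. Alternatives were other tests (DESeq2 1.42.0, limma-voom), scalings, filters and pseudocounts, a GC and length correction, a replicate block and each library left out. Positions, lengths and GC content came from GENCODE vM21 (55227 IDs matched), and promoters from RefSeq on GRCm38.p6.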

Additional observations from a re-analysis of the deposited data

Results flagged for a closer look

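The SRC-3KO over control ratio of 3 members pointed opposite ways in the 2 tumor states, every SRC-3KO library lying above both controls without a tumor and below both with one. The log2 ratio with a tumor minus that without was -3.45 for Ccl4 (SE 0.80), -3.37 for Xcl1 (SE 1.31) and -1.81 for Fasl (SE 0.75). The limma-based test of the difference, adjusted over 11674 genes, gave an adjusted p of 0.571 for each, and 8.57% of those genes showed the same arrangement of libraries. The 2 tables differ in unit and processing, and the knockout titles without a tumor carry a tag that the controls lack, so these cannot be told apart from the tumor state. After correction for GC content and length, the ratio without a tumor was -0.45 for Ccl4, 0.18 for Fasl and 0.16 for Xcl1, so that little or none of the higher level in the knockouts was left. For Xcl1 the ratio with a tumor was -0.14 without control replicate 1.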

How the results depend on the processing

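With a tumor, the members' ratios were below 0 under every alternative run: 104 values kept their side of the threshold, 9 passed it and 0 reversed. Without a tumor 80 values kept direction and side, 2 passed the threshold and 13 reversed. With a tumor the number of genes called, 14, was 7 with a pseudocount of 0.1, 2 with 0.01, 1 with no filter, 30 with at least 5 FPKM, 6 with median-of-ratios scaling and 4 with TPM scaling, and 16 to 2249 with 1 library left out. The median member ratio was -2.49 and -2.65 with the pseudocounts 0.1 and 0.01 and -1.70 to -1.19 with 1 library left out. Only 5 members were tested at 5 FPKM, all 5 below 0. Prf1 is among the values that did not reverse, although its direction was fixed by the filter of 1 FPKM. Every alternative reused the same libraries. TPM scaling put the median of all genes at 0.21 and that of the members at -1.73.

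The replicate block on P1 and P2, which the labels do not state to pair the libraries, gave 72 genes and 3 members (Ccl3, Nkg7 and Ccl4). The block was left out of the main fit because no label states that pairing. The deviations of same-numbered libraries, computed after the fits, correlated at 0.04 over 12859 genes in 2 pairs. No paired analysis was possible without a tumor because those titles give the groups no shared numbers. With 1 library left out, 0 to 5 members with a tumor were called.

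Without a tumor, 0 genes were called by edgeR (341 lower and 131 higher at an unadjusted p under 0.05), against 70 with all genes with a count kept, 87 by DESeq2 and 0 to 7310 with 1 library left out. Members below 0 numbered 3 of 8, against 5 of 10 with all genes kept (Prf1 and Gzmk added), 5 of 8 with the GC and length trend removed and 1 to 4 with 1 library left out. Members called numbered 0, against 1 (Prf1) with all genes kept and 0 to 2 with 1 library left out (Nkg7 and Ccl4 without control replicate 2). The median member ratio was -0.80 with the GC and length trend removed and -0.03 to 0.84 with 1 library left out. Gzmb reversed to -0.14 (RLE factors), -0.049 (upper quartile), -0.030 (all genes), -0.20 (10 CPM filter), -1.39 (GC and length) and -0.14 (DESeq2), Nkg7 to 0.35 (limma-voom) and Ccl4 to -0.45 (GC and length). With 1 library left out, Gzma ranged from -1.56 to 0.71, Gzmb from -0.54 to 0.85, Nkg7 from -1.53 to 2.17 and Ccl5 from -0.45 to 1.11. Against edgeR's median of -0.02, all genes had a median of 0.24 in limma-voom, -0.15 with RLE factors and -0.76 with all genes kept. The causes were not tested. Without a tumor, Gzma, Gzmk and Prf1 had few or no counts in most libraries, and with one the depth is unknown.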
